A study of Mus musculus with 8 samples.

Results

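The genes described here are 43 imprinted genes of the mouse, with the noncoding RNAs and host genes that lie in or beside their clusters. They were taken from a fixed list by gene symbol and located in the GENCODE annotation of the GRCm38 build, where all 43 were found once, among 30233 protein-coding and long noncoding genes of chromosomes 1 to 19. The window of a gene was its body with 5 kb on each side. The 43 windows merged into 30 stretches of 2793609 bp in 18 imprinted clusters, and 14 of the genes are known as maternally expressed, 24 as paternally expressed and 5 as hosts or partners of an imprinted neighbour.

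An imprinted gene is transcribed mainly from the copy inherited from 1 parent. The choice is set by methylation that is laid down on cytosines in the egg or the sperm, at a germline differentially methylated region (germline DMR), and that is kept through the wave of demethylation in the early embryo by the zinc finger proteins ZFP57 and ZFP445 and the cofactor TRIM28. TET enzymes oxidise 5-methylcytosine to 5-hydroxymethylcytosine (5-hmC), a step towards demethylation, so the methylated copy of a DMR is a place where 5-hmC could in principle form.

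The question of the study that bears on these genes is where 5-hmC lay in pro-B cells with and without the histone deacetylase HDAC7, a repressor that acts in early B cells. 5-hmC was mapped by hydroxymethylated DNA immunoprecipitation and sequencing (hMeDIP-seq), in which an antibody pulls down DNA fragments that carry the mark. Pro-B cells (B220+CD43+IgM-) were sorted from the bone marrow of C57BL/6 littermates aged 4 to 6 weeks. There were 2 libraries per genotype, each with a deposited list of peaks, and the input libraries were not used here.

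The wild-type (WT) mice were Hdac7 +/- and the HDAC7-deficient (HDAC7-KO) mice were Hdac7 fl/- with Cre driven by mb1 (Cd79a), a gene switched on early in the B lineage. Every mouse therefore had at least 1 Hdac7 allele that was null, and the deletion in HDAC7-KO is limited to the B lineage. Whether the WT mice carried Cre is not given in the sources used here. Peak positions cannot show whether Hdac7 was deleted or whether the sorted cells were pro-B cells. The mice were inbred and the lists hold no allele information, so the maternal and the paternal copy cannot be told apart at any of these genes.

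The 4 lists held 1305200 to 1414862 peaks, which covered 9.05 to 10.5% of chromosomes 1 to 19. They give a start and an end for each peak and no height, so read depth is unknown, no counting interval can be given for a covered length, and every value below is a number of peaks or a number of bases under peaks. In HDAC7-KO replicate 2 the peaks covered 11.8 to 11.9% of chromosomes 15, 17 and 18, which hold 7 of the 43 genes, against 10.3% of chromosomes 1 to 19 as a whole. For the ratios of these genes, values relative to the covered share of their own chromosome in the same library are given as well. Values of the 4 libraries are always given in the order WT replicate 1, WT replicate 2, HDAC7-KO replicate 1 and HDAC7-KO replicate 2.

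The sequences under the longest stretches that carried a peak in all 4 libraries are shown for H19, Slc22a18, Kcnk9 and Igf2r, as examples. They were read from GRCm38, are written 5′ to 3′ on the strand of the gene, and have each CpG, the dinucleotide that carries most methylation in mammals, in capitals. The stretch of H19, at chr7:142576825-142577029 on the minus strand, overlapped an exon of this noncoding RNA and held 12 CpG in 205 bp. The stretch of Slc22a18, at chr7:143500067-143500248 on the plus strand, lay in the flank outside annotated genes and held 0 CpG in 182 bp. For Kcnk9, the central 240 bp of its stretch are shown, at chr15:72538306-72538545 on the minus strand, in an intron and with 4 CpG. For Igf2r the central 240 bp, at chr17:12743902-12744141 on the minus strand, lay in an intron of Igf2r and of the overlapping Airn and held 1 CpG. Repeats marked in the reference made up 0, 42.9, 3.35 and 0% of these 4 stretches, in the order printed. Stretches not printed could hold more, as that of Zim1 with 98.6% and that of Meg3 with 73.3%.
H19: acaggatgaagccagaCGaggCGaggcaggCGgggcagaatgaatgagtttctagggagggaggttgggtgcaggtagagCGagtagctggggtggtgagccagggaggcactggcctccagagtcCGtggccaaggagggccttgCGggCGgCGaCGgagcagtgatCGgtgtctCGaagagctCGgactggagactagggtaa
Slc22a18: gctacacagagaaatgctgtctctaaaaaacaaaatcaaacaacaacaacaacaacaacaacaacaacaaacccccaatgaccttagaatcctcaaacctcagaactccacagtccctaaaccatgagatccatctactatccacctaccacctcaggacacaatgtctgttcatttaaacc
Kcnk9: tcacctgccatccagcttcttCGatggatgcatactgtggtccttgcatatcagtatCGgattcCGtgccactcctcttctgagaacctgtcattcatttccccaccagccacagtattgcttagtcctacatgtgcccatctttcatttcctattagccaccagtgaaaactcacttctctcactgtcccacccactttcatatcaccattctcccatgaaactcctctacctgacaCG
Igf2r: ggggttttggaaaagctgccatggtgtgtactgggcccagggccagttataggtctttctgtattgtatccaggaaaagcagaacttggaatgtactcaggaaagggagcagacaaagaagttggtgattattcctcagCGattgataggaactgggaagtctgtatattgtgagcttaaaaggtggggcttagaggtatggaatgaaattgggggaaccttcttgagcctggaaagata

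The second set shows the starts that lie in germline DMRs. Capitals mark TGCCGC on either strand (on the other strand it reads GCGGCA), the hexamer that ZFP57 binds when its CpG is methylated. Of the 60-bp stretches with 2 or more hexamers within 1000 bp of a germline DMR start, and outside coding and untranslated exons, those of 7 genes are shown: Airn at chr17:12741749-12741808 (plus strand, intron of Airn and Igf2r), Kcnq1ot1 at chr7:143295659-143295718 (minus, exon of this noncoding RNA), Peg3 at chr7:6729670-6729729 (minus, intron), Plagl1 at chr10:13091046-13091105 (plus, intron), Mcts2 at chr2:152686858-152686917 (plus, just before the start, in an intron of its host H13), Peg13 at chr15:72810021-72810080 (minus, exon of this noncoding RNA) and Nap1l5 at chr6:58907092-58907151 (minus, before the start, in an intron of its host Herc3). Peg3 and Nap1l5 had a peak on the stretch in 1 library each, and the other 5 stretches had none in any library.
Airn: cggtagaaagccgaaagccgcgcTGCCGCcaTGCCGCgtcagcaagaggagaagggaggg
Kcnq1ot1: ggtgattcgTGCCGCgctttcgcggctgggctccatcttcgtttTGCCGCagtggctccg
Peg3: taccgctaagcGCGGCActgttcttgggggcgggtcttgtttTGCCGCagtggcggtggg
Plagl1: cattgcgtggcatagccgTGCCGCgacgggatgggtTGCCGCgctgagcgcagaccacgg
Mcts2: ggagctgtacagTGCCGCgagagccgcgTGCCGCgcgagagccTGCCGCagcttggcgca
Peg13: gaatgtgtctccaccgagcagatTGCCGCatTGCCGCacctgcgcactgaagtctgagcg
Nap1l5: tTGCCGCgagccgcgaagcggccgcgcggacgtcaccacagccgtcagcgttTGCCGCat

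Over all imprinted windows together, the covered length did not separate the genotypes. The merged windows held 1596, 1676, 1741 and 1593 peaks, which covered 10.2, 11.2, 10.3 and 11.4% of their bases. The WT mean was 10.7% ± 0.642 (SD, n = 2) and the HDAC7-KO mean 10.9% ± 0.815 (SD, n = 2), a ratio of 1.02 ± 0.0976, and the ranges of the genotypes overlapped. With 2 libraries against 2, the smallest p that a two-sided exact permutation test can give is 0.333, so no gene could pass a threshold of 0.05, and "higher" or "lower" in HDAC7-KO below means only that both HDAC7-KO libraries lay above, or below, both WT libraries. In every library the imprinted windows were covered slightly more than the autosomes as a whole, by 1.06 to 1.14 times.

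Set against genes of like length (within 25% of the member's length, 289 to 3968 genes for each member), 27 of the 43 imprinted genes lay above the median coverage of their comparison genes. The ratio to that median ran from 0.601 to 1.72, with a median of 1.09. 8 members stood at or above the 90th percentile of their comparison genes and 2 at or below the 10th. When the comparison genes also had a like CpG density, 26 of 43 lay above. The highest ratios belonged to H19, Kcnk9, Slc22a18, Peg10 and Zim1, and the lowest to Mkrn3, Magel2, Zrsr1, Phlda2 and Copg2. Of the 2793609 bp of merged imprinted windows, 2743609 are known bases in the reference. Percents divide by the full window, for members and comparison genes alike. Which members hold the unknown bases, and whether these lower a ratio, was not tested.

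**Figure D1:**
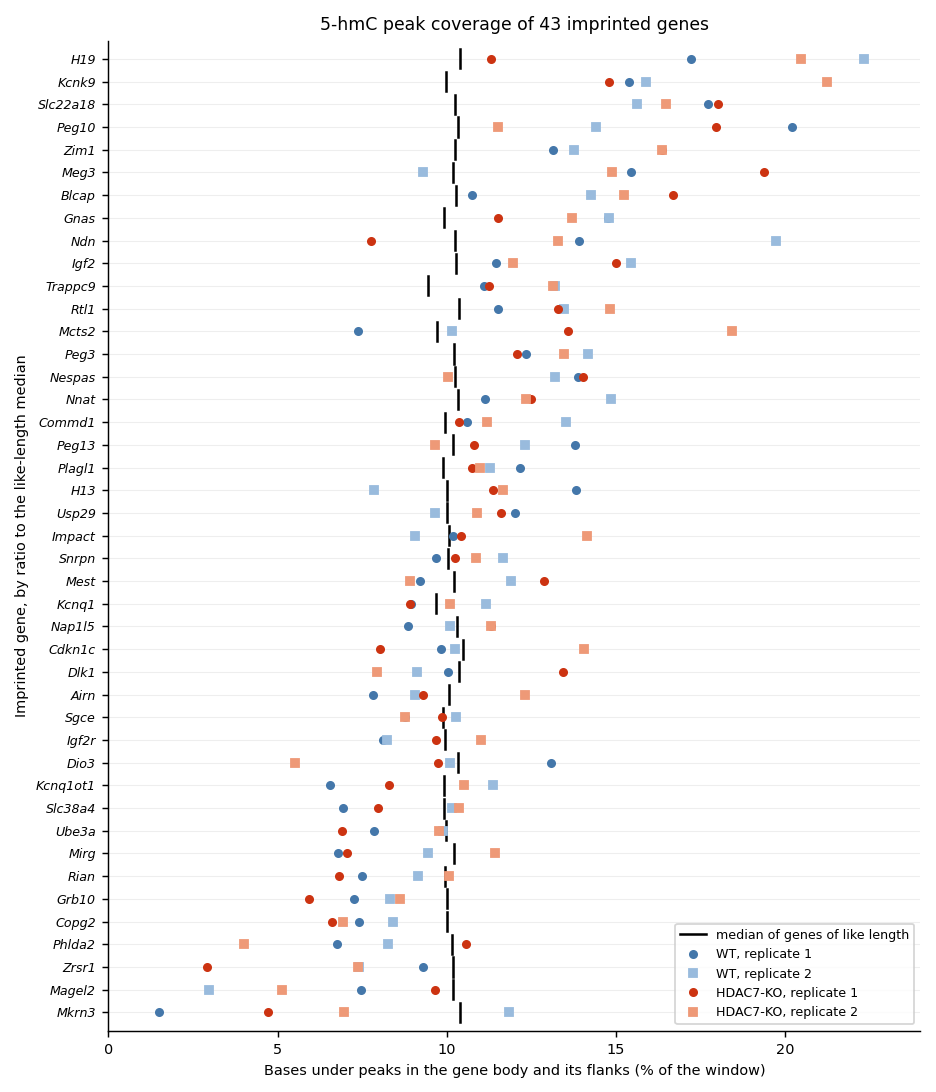
Bases under peaks as a percent of each gene's window (x axis) for the 43 imprinted genes (y axis, ordered by the ratio of their mean to the median of genes of like length). Points are single libraries and black ticks are like-length medians; H19 and Kcnk9, at the top, lie right of their tick in all 4 libraries, and Mkrn3 at the bottom ranges from 1.498 to 11.85%.

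H19, a noncoding RNA transcribed from the maternal copy beside the growth factor gene Igf2, had the densest peaks of the set relative to its length. Its 2615-bp body (chr7:142575529-142578143, minus strand) was under peaks for 35.8, 54.5, 29.8 and 55.0% of its bases. Replicate 2 of each genotype was the higher one, and the genotypes overlapped. The mean of 43.8% compares with a median of 9.01% over 2102 genes of like length, of which 99.6% lay below H19. Within 1000 bp of the annotated start richest in CpG the mean was 46.0%. That start does not meet the definition of a CpG-rich start (its observed over expected CpG ratio is 0.390), and the 51 CpG-rich starts with a like number of CpG, a different class, had a median of 12.04% and all lay below it. With its flanks, H19 had 10, 18, 11 and 17 peaks over 17.2, 22.3, 11.3 and 20.5% of the window, so the excess lay in the body rather than in the flanks, which averaged 11.1%.

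The 5 kb before the outermost start of H19 include the paternally methylated control region, where the insulator protein CTCF is known to bind the unmethylated maternal copy. This stretch held 3, 4, 2 and 2 peaks over 513, 468, 191 and 409 bp. Both HDAC7-KO libraries lay below both WT libraries in number of peaks and in covered bases, in counts this small. The share of all genes with such an order in this stretch was not counted. A search for GGNGGCAG, the core of the CTCF motif, on both strands found 6 matches between 1298 and 3891 bp before the start. Among the same 5 kb of all 30233 genes, 79.0% had at least 1 match and 3.65% had as many. Only the match nearest to the start lay under a peak, and only in WT replicate 1. The other matches lay 2166 to 3891 bp before the start, where the only peak of any library was one of 61 bp in WT replicate 2. Without that 61-bp peak, the 468 bp of WT replicate 2 would fall below the 409 bp of HDAC7-KO replicate 2. The order in covered bases therefore depended on it.

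Igf2 itself, whose product is a fetal growth factor, had 15, 21, 22 and 14 peaks over 11.46, 15.45, 14.99 and 11.96% of its window. The HDAC7-KO to WT ratio was 1.00 ± 0.264 (SD, n = 2 per genotype), and the mean was 1.31 times the like-length median.

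Kcnk9, a maternally expressed potassium channel gene on chromosome 15, carried a peak region of unusual width. In its intron, at chr15:72534843-72538869, peaks of the 4 libraries joined into 1 region of 4027 bp, and only 3 of 2463835 merged regions on chromosomes 1 to 19 were at least as wide, this one included. Peaks filled 3867, 777, 2206 and 3897 bp of it, so WT replicate 2 was far below the other libraries and the genotypes overlapped. The region had 5.46 CpG per kb, fewer than the imprinted windows as a whole (10.8 per kb), and 7.42% of it was marked as repeat in the reference. The Kcnk9 body was covered for 18.1, 19.4, 17.8 and 25.5%, a mean of 20.2% that exceeded 99.6% of 2977 genes of like length.

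**Figure D2:**
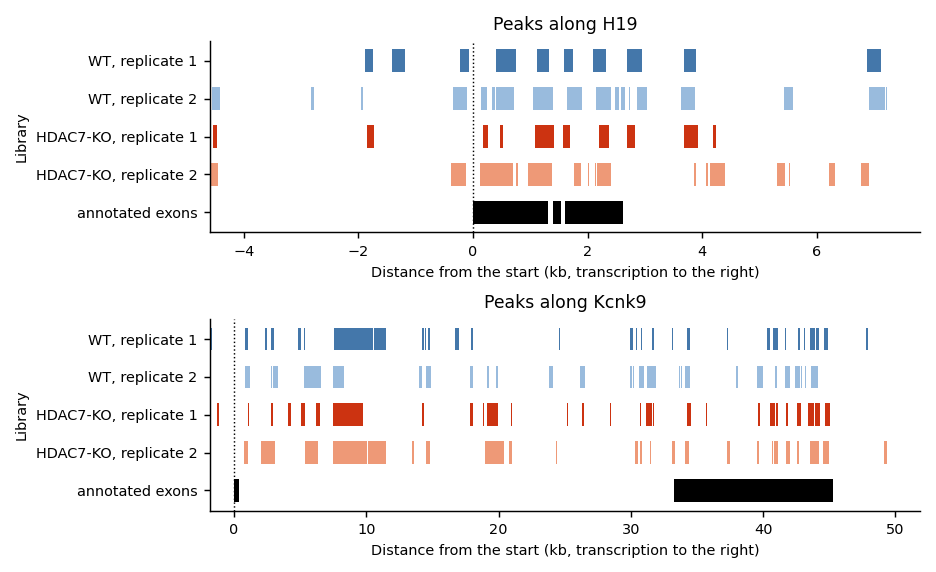
Peaks of each library (coloured bars, 1 row per library) and annotated exons (black) along H19 and Kcnk9, by distance in kb from the outermost annotated start, with transcription to the right. The H19 peaks crowd into the transcribed part, and Kcnk9 shows the wide block between about 7 and 12 kb that WT replicate 2 filled for only 777 bp.

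Most of the other wide regions lay in introns, among them those of Trappc9, Kcnq1, Zim1 and Snrpn. The 3 next in width after that of Kcnk9 were those overlapping exon sequence of Meg3, in the flank of Gnas and across the outer edge of the flank of Rtl1. Meg3, a maternally expressed noncoding RNA, had a region of 1601 bp at chr12:109560217-109561817. It overlapped exon sequence of Meg3 and was filled for 1484, 37, 1394 and 857 bp. A region of 2727 bp at chr12:109582207-109584933 reached into the flank of Rtl1, a retrotransposon-derived gene, and lay mostly outside its window. Over its whole width it was filled for 2118, 1911, 1365 and 1902 bp. The flank of Gnas, which encodes the stimulatory G protein alpha subunit, had one of 2044 bp at chr2:174349141-174351184, filled for 931, 1503, 994 and 1898 bp. In all, 34 of the 3134 merged regions touching imprinted windows were at least 1000 bp wide, beside 14375 of 2463835 on chromosomes 1 to 19. Of the 34, 30 had a peak in all 4 libraries. Merging peaks of more libraries widens a region, and the share with all 4 among wide regions elsewhere was not counted.

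Among the other highly covered genes, Slc22a18, a transporter gene of the Kcnq1 cluster, varied least: its window was covered for 17.73, 15.63, 18.02 and 16.49%, or 1.66 times the like-length median. Peg10, a paternally expressed retrotransposon-derived gene, had 20.2, 14.4, 17.9 and 11.5%, a ratio of 1.55 with replicate 2 lower in both genotypes. Most of that lay in its flanks, which averaged 23.3% against 10.5% in the body, and in HDAC7-KO replicate 2 the body had only 89 bp under peaks.

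The members with the lowest ratios, Mkrn3 and Magel2, are neighbours in the Snrpn-Ube3a cluster. Mkrn3, a makorin gene, had 1, 8, 3 and 6 peaks over 1.498, 11.85, 4.702 and 6.95% of its window, and its 2 WT libraries held the lowest and the highest value. The body of Magel2, of the MAGE family, held 0, 25, 68 and 0 bp under peaks, a mean of 0.502%, although its window had 3, 2, 9 and 3 peaks in all. The body of Mcts2, a retrogene in an intron of H13, held 0 bp in each of the 4 libraries.

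Zrsr1, a splicing factor retrogene in Commd1, had 9.29, 7.40, 2.92 and 7.36% (ratio 0.662) and Phlda2, a gene that limits placental growth, had 6.75, 8.26, 10.6 and 4.02% (ratio 0.728). Copg2, which encodes a coatomer subunit, had 7.41, 8.41, 6.61 and 6.95%, and only 6.17% of 1183 like-length genes lay below it. Dio3, which encodes a thyroid hormone-inactivating deiodinase, had 0 peaks within 1000 bp of its start in all 4 libraries, at a start with 229 CpG, the most of the 43.

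In the comparison of genotypes, 7 of 43 members (16.3%) were higher in HDAC7-KO by covered bases, against 10.7% of all genes, and 7 of 43 (16.3%) were lower, against 17.8% of all genes. The other 29 overlapped between genotypes. The median ratio of HDAC7-KO to WT was 1.01 over the members and 0.963 over all genes. The higher members were Igf2r, Airn, Zim1, Blcap, Mcts2, Impact and Nap1l5, and the lower ones Copg2, Ndn, Gnas, Plagl1, Zrsr1, Peg13 and Dio3. By number of peaks, 8 members were higher (12.4% of all genes were) and 5 were lower (10.9%), with Ube3a, Meg3, Rtl1 and Nnat among the first and Phlda2, Mest and Nespas among the second. By both measures at once, 4 members were higher, 9.30% of them against 4.37% of all genes, and 2 were lower, 4.65% against 5.55%.

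The 4 members higher by both measures were Igf2r, Airn, Blcap and Impact. Igf2r, a receptor that clears IGF2 from the cell surface, had 51, 49, 63 and 57 peaks over 7890, 7996, 9420 and 10722 bp. The ratio of HDAC7-KO to WT was 1.27 ± 0.117 (SD, n = 2 per genotype; exact two-sided permutation p = 0.333), and it was 1.21 ± 0.127 relative to chromosome 17. Airn, the antisense RNA that silences Igf2r on the paternal copy, had 63, 65, 79 and 81 peaks over 10064, 11678, 11960 and 15878 bp. Its ratio was 1.28 ± 0.288, and 1.21 ± 0.0481 relative to chromosome 17. The 2 genes overlap and share peaks, so they are not separate evidence.

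Blcap, the host of Nnat, had 15, 15, 23 and 16 peaks over 2679, 3551, 4161 and 3797 bp, a ratio of 1.28 ± 0.266. Impact, a regulator of translation on chromosome 18, had 27, 26, 28 and 30 peaks over 4800, 4273, 4905 and 6657 bp. Its ratio was 1.27 ± 0.292, and 1.18 ± 0.225 relative to its own chromosome, where the values of HDAC7-KO replicate 1 and WT replicate 1 were 1.16 and 1.13.

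Zim1, Mcts2 and Nap1l5 were higher by covered bases alone. Zim1, a maternally expressed zinc finger gene of the Peg3 cluster, was covered for 4621, 4845, 5761 and 5757 bp, a ratio of 1.22 ± 0.0407. Its replicates lay close together within each genotype. Mcts2 had 804, 1108, 1482 and 2012 bp, all of them in the flanks, which are part of H13, and had the largest ratio of the 43, 1.83 ± 0.568. Nap1l5, a histone chaperone-like gene, had 1048, 1195, 1338 and 1339 bp, a ratio of 1.19 ± 0.111.

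The 2 members lower by both measures were Copg2 and Gnas. Copg2 had 59, 59, 53 and 50 peaks over 11797, 13392, 10528 and 11064 bp, a ratio of 0.857 ± 0.0825. Gnas had 64, 71, 53 and 51 peaks over 10703, 10714, 8342 and 9923 bp, a ratio of 0.853 ± 0.104. The WT libraries of Gnas agreed closely, and the 2 HDAC7-KO libraries stood apart from each other as well as from WT.

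Of the 5 lower by covered bases alone, Ndn, a MAGE family gene, had 1904, 2703, 1064 and 1819 bp, a ratio of 0.626 ± 0.278. Zrsr1 had 1346, 1072, 423 and 1067 bp, so that HDAC7-KO replicate 2 was barely under the lower WT library. Dio3 had 1574, 1214, 1171 and 665 bp, and Peg13, a noncoding RNA in Trappc9, had 2029, 1813, 1589 and 1423 bp. The ratio of Peg13 was 0.784 ± 0.0873, and 0.761 ± 0.248 relative to chromosome 15, where the genotypes overlapped. Plagl1, a zinc finger transcription factor gene, had 9873, 9166, 8733 and 8927 bp, a ratio of 0.928 ± 0.0508.

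Dividing by the covered share of the gene's own chromosome left 8 members higher, against 13.4% of all genes, and 3 lower, against 17.1%. The 8 were the 7 above and Rtl1, and the 3 were Copg2, Ndn and Gnas. Over 7 settings (covered bases, number of peaks, peaks of at least 200 bp, the body alone, flanks of 10 kb, and division by the autosomes or the own chromosome), Igf2r, Zim1 and Blcap were higher in 6, Airn and Impact in 5, and Mcts2 in 4. Copg2 was lower in 6, Gnas in 5 and Ndn in 4, and Zrsr1 was lower in 1 alone. With peaks of at least 200 bp, Igf2r, Airn, Blcap, Impact, Copg2 and Gnas were neither higher nor lower. In that setting Zim1 and Mcts2 stayed higher, and Peg13 and Dio3 stayed lower. No member was higher in 1 setting and lower in another. The settings reuse the same peaks in the same or nested windows, so they are not separate evidence. The share of all genes called in as many settings was not counted.

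By cluster, the genotypes separated at 6 of 18 after division by the own chromosome. Of single genes on this scale, 13.4% of all tested were higher and 17.1% lower, and no such share was counted for stretches like the clusters. The Igf2r-Airn cluster had the tightest replicates: its coverage relative to chromosome 17 was 0.825, 0.822, 0.985 and 0.976, a ratio of HDAC7-KO to WT of 1.19 ± 0.00814 (SD, n = 2 per genotype), and without that division 1.25 ± 0.226. Nnat-Blcap (ratio 1.34 ± 0.225), Nap1l5 (1.23 ± 0.0930) and Impact (1.18 ± 0.225) were the other higher clusters. Gnas (0.881 ± 0.103) and Mest-Copg2 (0.953 ± 0.0533) were the lower ones. Without the division, Dlk1-Dio3 was also higher, Plagl1 was also lower, and Mest-Copg2 overlapped. The Igf2r-Airn and Impact clusters lie on chromosomes 17 and 18, and 12.4% of 1486 genes on chromosome 17 were higher in HDAC7-KO by covered bases.

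**Figure D3:**
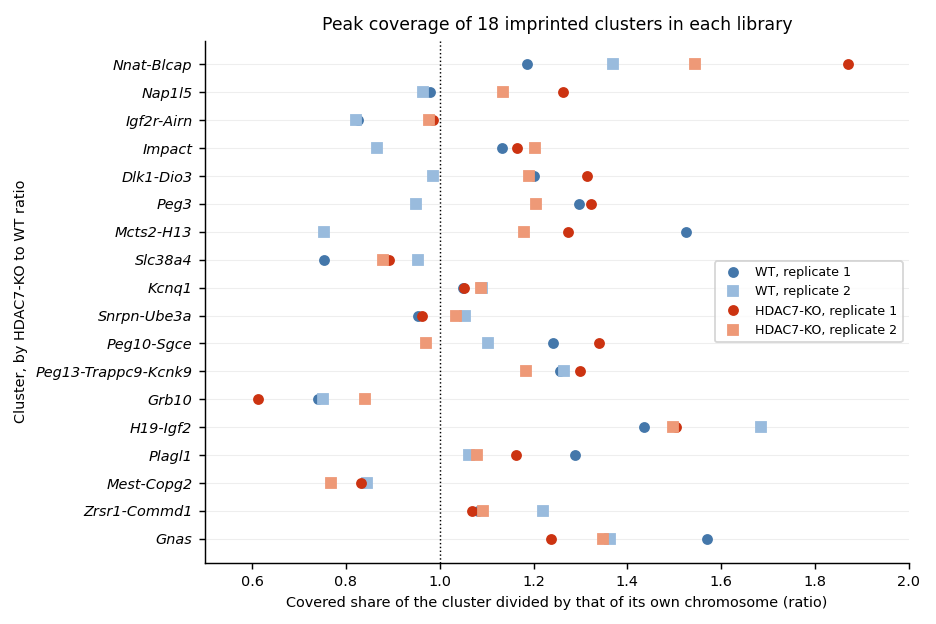
Covered share of each of the 18 imprinted clusters divided by that of its own chromosome (x axis, ratio; the dotted line is 1) in each library, with clusters ordered by their HDAC7-KO to WT ratio. The WT points of Igf2r-Airn sit together near 0.82 and its HDAC7-KO points near 0.98, while most other clusters overlap.

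In 18 bins of 10 kb along the Igf2r and Airn windows, counted from the start of Airn, 3 (16.7%) were higher in HDAC7-KO and 0 lower. Over all 10-kb bins of chromosome 17 these shares were 15.7% and 12.1%, so the share of higher bins was near that of the chromosome. The higher bins were centred 35 kb before and 45 and 105 kb after the start. The bin 45 kb into Airn had 6.47, 8.23, 14.1 and 15.8% of its bases under peaks, and the bin at 105 kb had 3.59, 4.67, 9.16 and 15.03%. The 10 kb that begin at the start of Airn, on its germline DMR, had 13.9, 8.46, 10.3 and 23.6%, with WT and HDAC7-KO overlapping.

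In the Kcnq1 cluster no gene differed by covered bases. The potassium channel gene Kcnq1 had 170, 207, 188 and 184 peaks over 8.94, 11.2, 8.92 and 10.1% of its window, and its antisense RNA Kcnq1ot1 had 43, 65, 50 and 60 peaks over 6.54, 11.4, 8.30 and 10.5%. Both were covered more in replicate 2 of each genotype. Cdkn1c, a cell cycle inhibitor gene, had 9.83, 10.3, 8.04 and 14.1%.

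In the Peg3 and Peg10-Sgce clusters, the zinc finger gene Peg3 had 12.3, 14.2, 12.1 and 13.5%. The deubiquitinase-like gene Usp29 had 12.02, 9.64, 11.6 and 10.9%. Sgce, a sarcoglycan gene, had 8.76, 10.3, 9.85 and 8.77%. All 3 overlapped between genotypes.

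At Snrpn-Ube3a and Mest-Copg2, the splicing gene Snrpn had 9.68, 11.7, 10.2 and 10.9%, and the ubiquitin ligase gene Ube3a had 7.86, 9.89, 6.90 and 9.77%. Mest, a hydrolase-like gene, had 9.21, 11.9, 12.9 and 8.91%. Ube3a was higher and Mest lower by number of peaks alone.

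The Dlk1-Dio3 cluster on chromosome 12 held members that went different ways. Meg3 was covered for 15.4, 9.30, 19.4 and 14.9%, and Rtl1 for 11.5, 13.5, 13.3 and 14.8%. Dlk1, related to Notch ligands, had 10.04, 9.11, 13.4 and 7.93%. The noncoding RNAs Rian and Mirg, which host small RNAs, had 7.48, 9.14, 6.81 and 10.1% and 6.78, 9.46, 7.04 and 11.4%. As a whole the cluster had 10.3, 9.77, 11.2 and 11.3%, a ratio of 1.12 ± 0.0439. Relative to chromosome 12 the ratio was 1.15 ± 0.178, and the genotypes overlapped because the replicates spread further apart.

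The remaining members overlapped as well. Nespas, the antisense RNA at Gnas, had 13.9, 13.2, 14.0 and 10.1%. Nnat, which encodes a small membrane protein, had 11.1, 14.8, 12.5 and 12.3%. Grb10, an adaptor of growth factor receptors, had 7.27, 8.32, 5.94 and 8.62%, and 9.56% of like-length genes lay below it. Commd1 had 10.6, 13.5, 10.4 and 11.2%, H13 had 13.8, 7.85, 11.4 and 11.6%, Trappc9 had 11.1, 13.2, 11.3 and 13.1%, and Slc38a4, an amino acid transporter gene, had 6.92, 10.1, 7.98 and 10.4%. Relative to chromosome 15, the ratio of HDAC7-KO to WT was 0.969 ± 0.0850 for Trappc9, 1.09 ± 0.110 for Kcnk9 and 1.04 ± 0.171 for Slc38a4.

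Members of every class went in both directions, as did all genes, of which 10.7% were higher and 17.8% lower. No class was tested against these shares. Of 14 maternally expressed genes 2 were higher and 1 lower by covered bases, of 24 paternally expressed genes 4 and 5, and of 5 hosts or partners 1 and 1. Of 8 noncoding genes 1 was higher and 1 lower, and of 35 coding genes 6 and 6. The median coverage was 10.2% for the maternally and 10.8% for the paternally expressed genes, and 10.1% over all genes.

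The starts assigned to maternal germline DMRs had peaks at shares near those of other CpG-rich starts. Of 15 such starts, 12 (80.0%) had a peak within 1000 bp in at least 2 libraries, against 84.6% of 8265 CpG-rich starts of other genes, and 7 (46.7%) had one in all 4, against 39.0%. A start was called CpG-rich when at least 50% of its 1000 bp on each side was G or C and the observed over expected CpG ratio was at least 0.6, which 9 of the 15 met. Their mean coverage was 9.40, 8.34, 7.97 and 13.4%, or 9.77% over the 4 libraries, against 10.1%. The 7 with a peak in all 4 libraries were Peg3, Peg10, Mest, Snrpn, Nnat, Nap1l5 and Slc38a4. The highest was Nnat with 421, 301, 257 and 500 bp, and the lowest was Mcts2 with 99, 0, 0 and 0 bp. The starts of Peg3 and Usp29, of Peg10 and Sgce and of Zrsr1 and Commd1 share windows and peaks. For Nespas, the start with the most CpG (chr2:174285435) lay far inside the gene from its outermost start (chr2:174295436), near that of Gnas (chr2:174284320). Whether this window is in the germline DMR was not checked, and it stays in all values for the 15 starts.

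Around these 15 starts coverage rose away from the start on the upstream side. It averaged 22.3% in the 500-bp bin centred 4750 bp before the start, between 21.5 and 24.3% in each library, and 4.41% in the bin centred 750 bp before it. At the CpG-rich starts of other genes the same bins had 10.6% and 11.2%, and their lowest bin was the first after the start, with 8.58%. Each bin holds 15 stretches of 500 bp at most, some shared between genes, so single peaks move its value.

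**Figure D4:**
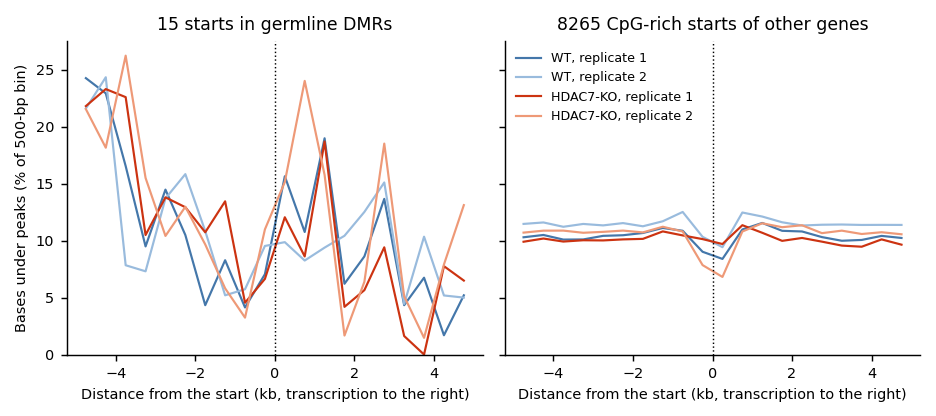
Bases under peaks as a percent of 500-bp bins (y axis) by distance from the start in kb (x axis, transcription to the right), for 15 starts assigned to germline DMRs and for 8265 CpG-rich starts of other genes, 1 line per library. The left panel starts at 21.5 to 24.3% in its leftmost bin and falls to 3.24 to 5.73% in the bin 750 bp before the start, and the right panel stays between 6.81 and 12.5%.

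The hexamer TGCCGC, counted on both strands, occurred in all 15 germline DMR start windows, with a median of 5 per window. It occurred in 73.1% of the CpG-rich start windows of other genes with a median of 1, and in 15 of 16 CpG-rich starts of the other members with a median of 2. Of the 75 hexamers in the 15 windows, 11, 5, 11 and 18 lay under a peak, which is 14.7, 6.67, 14.7 and 24%, beside 9.40, 8.34, 7.97 and 13.4% of the window bases. HDAC7-KO replicate 2 was the highest in both.

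The sequence under the imprinted peaks was not richer in CpG than the windows around them. Peaks in the windows had 10.7, 10.6, 10.6 and 10.3 CpG per kb, against 10.8 in the windows as a whole, and the bases under peaks in all 4 libraries had 9.56. On chromosomes 1 to 19 peaks had 8.18 to 8.61 CpG per kb, against 8.51 overall. Repeats marked in the reference made up 22.8% of the imprinted windows and 30.6, 26.0, 29.3 and 25.6% of the bases under peaks there. Of 168 stretches of at least 100 bp that lay under peaks of all 4 libraries in imprinted windows, 60 (35.7%) held no CpG, as the Slc22a18 stretch printed above.

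Peak by peak, the shares of gained and lost regions in the imprinted windows were near those of the genome. Merging the overlapping peaks of all 4 libraries gave 3134 regions in the windows. A region was called gained when both HDAC7-KO libraries and neither WT library had a peak, which held for 94 regions, 2.999% (95% Wilson interval 2.46 to 3.66%, counting error only), against 2.92% of 2585751 regions on chromosomes 1 to 19 and X. The reverse held for 72 regions, 2.30% (1.83 to 2.88%), against 2.4%. The Kcnq1 cluster had 21 gained and 12 lost of 427, Peg13-Trappc9-Kcnk9 had 21 and 15 of 663, and Igf2r-Airn had 5 and 3 of 221.

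Of 12 genes whose products set or keep imprints, 3 were higher in HDAC7-KO by covered bases, beside 10.7% of all genes, and 1 was lower, beside 17.8%. Their median ratio of HDAC7-KO to WT was 0.974, against 0.963 over all genes. Zfp57 had 5.24, 6.78, 7.82 and 10.6% and Zfp445 had 5.36, 8.59, 9.68 and 11.3%, both genes of the zinc finger proteins that hold imprints in the embryo. Smchd1, a chromatin protein gene, had 7.11, 8.01, 8.31 and 10.7%. Dnmt3a, the de novo methyltransferase gene, was lower with 13.8, 13.3, 11.2 and 12.3%. The other 8, Trim28, Setdb1, Ctcf, Dppa3, Dnmt1, Uhrf1, Dnmt3l and Arid4a, overlapped between genotypes.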

How the data were processed

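Per the labels and the study's methods, the authors trimmed the hMeDIP-seq reads (cutadapt version 1.6, run through version 0.4.2 of Trim Galore), aligned them to mm10 (GRCm38; the aligner is given as bwa in one source and Bowtie2 in another), removed duplicates, made RPKM signal with deepTools and called peaks in each library with MACS2. The deposited lists hold peak start and end positions and no other value. Whether peaks shared with input were removed before deposit is not given in the sources used here, nor whether replicates came from separate mice, so their spread may be technical.

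Gene windows were taken from GENCODE for GRCm38, and no peak ran past the end of a chromosome of that build. The bases under peaks and the number of peaks overlapping by at least 1 bp were counted per window and library (Python 3.11.15, NumPy 2.4.6, SciPy 1.17.1, matplotlib 3.10.9), with counting and calling tested on simulated data. A gene was higher or lower when both HDAC7-KO libraries lay beyond both WT libraries, and the test of a single value was the exact two-sided permutation test. SDs of ratios were propagated from the 2 groups. The start of a gene was its annotated start with the most CpG within 1000 bp. Sequences are those of the reference, and parental expression and germline DMR starts come from textbook knowledge.

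The members, lists and tests were chosen with earlier results of these data known. Named with values in full were members higher or lower by both measures, the 5 highest and 5 lowest against genes of like length, germline DMR starts, and H19, Igf2, Igf2r, Kcnq1, Meg3 and Gnas, and the other members were added after their values were seen. Alternatives were the number of peaks, peaks of at least 200 bp, the body alone, flanks of 10 kb, division by autosome or chromosome coverage, a replicate block, other comparison genes and start windows, and each library left out.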

Additional observations from a re-analysis of the deposited data

How the results depend on the processing

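The ratio of covered length moved by less than its SD under every alternative run, between 0.962 and 1.07, so its side of 1 is not settled, and the number of members above the like-length median stayed between 22 and 28. The counts of called members did not. With peaks of at least 200 bp, 3 members were higher and 3 lower in HDAC7-KO, against 8.29% and 16.3% of all genes. Lower were also 3 with the body alone (16.2% of all genes), 4 with 10 kb flanks (18.3%) and 3 relative to the own chromosome (17.1%). Leaving out 1 library at a time gave 12 to 17 higher and 10 to 19 lower, against 19.4 to 34.0% and 28.7 to 46.7% of all genes, since 3 libraries separate more easily. The highest counts came without WT replicate 2 (17 higher) and without WT replicate 1 (19 lower), and every call made with 4 libraries is by construction kept. With the same-numbered libraries paired in a replicate block, 13 were higher and 13 lower, against 20.02% and 29.61% of all genes, and the ratio was 1.02. The deviations of same-numbered libraries correlated at 0.0774 over genes. This correlation cannot see a shift common to all genes. Peaks covered 9.16 and 9.05% of chromosomes 1 to 19 in WT and HDAC7-KO replicate 1, and 10.5 and 10.3% in replicate 2. Whether the numbers pair the libraries is therefore not settled. The 12 germline DMR starts with a peak in at least 2 libraries became 7 when all 4 were required, and 10 to 12 had a peak in at least 2 when each library was left out, an alternative added after the data were seen. With peaks of at least 200 bp, 4.41% of regions were gained, against 3.88% of all regions, and 3.12% were lost, against 3.93%. The lists have no depth, and 2 libraries per genotype cannot reach a p below 0.333.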
